A study of Mus musculus with 4 samples.

Results

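Peaks of the nuclear receptor PPARγ were examined at 41 genes of DNA replication and mitosis in mouse alveolar macrophages (AMs), among 20923 protein-coding genes with a curated RefSeq transcript on chromosomes 1 to 19 and X of mm10. They were taken by name from a list that was chosen with earlier results of these data known. No peak value enters the rule itself. Of the 41, 13 were nearest to at least 1 consensus region, that is, a merged region that held peaks of both ChIP libraries. The share was 31.7% (95% Wilson interval 19.6% to 47.0%), against 31.6% of all protein-coding genes. In the library with more peaks 33 of the 41 promoters were overlapped by a peak, against 41.3% of all promoters, and 12 of these 33 had a consensus region there (36.4%, 22.2% to 53.4%), against 49.4% of all promoters with such a peak.

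The series mapped PPARγ by HT-ChIPmentation, a ChIP method in which a transposase inserts sequencing adapters into the chromatin while it is still held by the antibody, here one from Diagenode. Both ChIP libraries came from AMs of adult WT C57BL/6J mice, obtained by lavage of the airspace and sorted by flow cytometry, and are called library 1 and library 2 after the replicate number in the labels. The 2 input libraries of the same cells served the authors as controls in peak calling and are not analysed here. Whether the ChIP libraries were made from different mice, or from pools, is not stated in the labels.

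Replication starts when the Mcm2 to Mcm7 ring is loaded on DNA and opened into an active helicase, and the copied chromosomes are later divided in mitosis by kinases, kinesins and kinetochore proteins. Most of these genes are transcribed mainly in dividing cells, under E2F factors at the entry to S phase and under the MuvB complex with B-MYB or FOXM1 before mitosis, through E2F sites, the cell cycle homology region (CHR) and CCAAT boxes near the start site. PPARγ, with its partner RXR, binds direct repeats of AGGTCA spaced by 1 base (DR1) and is known in AMs for genes of lipid handling and identity. AMs renew by slow local division and, per the study, also receive a contribution from circulating monocytes.

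Library 1 held 83787 peaks with a median width of 182 bp, and library 2 held 28535 with a median width of 285 bp. They formed 20233 consensus regions. Fold enrichment is the authors' ratio of ChIP over input at a peak's summit, and −log10 q is their score of its significance. Fold values recurred in steps: 55.3% of the peaks of library 1 and 59.1% of those of library 2 lay on the 10 commonest values of their list. The lists hold no read counts. By the study's quality table library 1 was sequenced more deeply than library 2, and the part of depth in the counts below was not tested. With 1 group of 2 libraries there is no contrast to test. Counts of the 41 genes are therefore given beside those of all genes, and intervals cover counting error only. Of marker genes, 15 of 15 for AMs were nearest to a consensus region, against 31.6% of all genes. The counts were 0 of 6 for lymphocytes, 1 of 5 for neutrophils, 2 of 6 for lung epithelium and 2 of 4 for endothelium. The AM list includes Pparg itself and genes of lipid handling, so these counts cannot check the cell type. A peak near a gene does not measure the gene's expression.

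The promoters are shown because their motif content is compared with that of all genes. The 250 bases upstream of the start site are printed for 5 of them, which were chosen after their values were seen: Bub1b and Pcna, with a consensus region at the promoter, Top2a and Cdk1, with a strong and a weak promoter peak in library 1 only, and Plk1, with no peak of either library. They read 5′ to 3′ toward the gene and come from RefSeq (GRCm38.p6, the build called mm10), through a table of promoter sequences with an entry for 36 of the 41 genes. Motifs were counted at 41 of 41 from the genome. None of the 5 printed stretches overlaps a curated exon. Capitals mark matches, on either strand, to the E2F words TTTCCCGC, TTTCGCGC, TTTGCCGC and TTTGGCGC, to the CHR word TTTGAA, to CCAAT and to AGGTCA. The Bub1b stretch is chr2:118597961-118598210 on the plus strand and that of Plk1 is chr7:122159185-122159434, also plus. The Pcna stretch is chr2:132253181-132253430, that of Top2a chr11:99024190-99024439 and that of Cdk1 chr10:69352913-69353162, all on the minus strand.
Bub1b: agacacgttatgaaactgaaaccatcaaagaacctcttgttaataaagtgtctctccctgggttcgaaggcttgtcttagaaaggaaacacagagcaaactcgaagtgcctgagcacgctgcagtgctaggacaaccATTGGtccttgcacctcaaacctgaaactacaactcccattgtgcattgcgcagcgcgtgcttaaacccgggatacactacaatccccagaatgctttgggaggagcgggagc
Pcna: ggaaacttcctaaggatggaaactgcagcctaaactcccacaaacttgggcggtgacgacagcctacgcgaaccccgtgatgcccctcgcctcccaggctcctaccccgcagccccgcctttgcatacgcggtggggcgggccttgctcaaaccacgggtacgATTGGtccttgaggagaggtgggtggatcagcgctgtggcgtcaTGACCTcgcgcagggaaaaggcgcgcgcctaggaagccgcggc
Top2a: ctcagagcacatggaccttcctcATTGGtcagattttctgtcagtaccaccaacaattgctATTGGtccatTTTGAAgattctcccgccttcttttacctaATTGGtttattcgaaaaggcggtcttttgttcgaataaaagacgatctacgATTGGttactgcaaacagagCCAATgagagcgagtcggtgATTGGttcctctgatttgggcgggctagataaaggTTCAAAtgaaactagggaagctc
Cdk1: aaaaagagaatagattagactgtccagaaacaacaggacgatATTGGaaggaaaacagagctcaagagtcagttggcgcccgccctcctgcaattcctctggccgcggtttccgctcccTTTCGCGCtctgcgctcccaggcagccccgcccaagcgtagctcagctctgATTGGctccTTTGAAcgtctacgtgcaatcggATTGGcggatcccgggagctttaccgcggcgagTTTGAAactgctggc
Plk1: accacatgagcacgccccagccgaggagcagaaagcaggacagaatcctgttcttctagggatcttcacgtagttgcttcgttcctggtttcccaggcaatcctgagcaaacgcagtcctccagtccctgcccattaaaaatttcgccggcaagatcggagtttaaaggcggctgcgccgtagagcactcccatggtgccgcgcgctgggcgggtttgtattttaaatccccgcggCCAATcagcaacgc

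Top2a, the topoisomerase that untangles sister chromatids, carried 6 CCAAT matches and 2 CHR matches in this stretch, and Cdk1, the kinase that drives cells into mitosis, carried 3 CCAAT, 2 CHR and 1 E2F match. Bub1b and Plk1 carried 1 CCAAT match each here, and their CHR matches began 40 and 30 bases downstream of the start site. Pcna carried 1 CCAAT match and the AGGTCA word, written on the other strand.

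Over the window from 250 bp upstream to 50 bp downstream of any start site of a gene, 38 of the 41 promoters held an E2F, CHR or CCAAT match (92.7%), against 53.4% of all promoters. CCAAT was held by 32 (78.0%, against 42.5% of all), CHR by 20 (48.8%, against 17.7%) and E2F by 9 (22.0%, against 3.41%). The E2F matches lay in the helicase genes Mcm3 to Mcm7 and in Hells, Ung, Cdk1 and Kif15, while CHR matches lay in Plk1, Aurka, Aurkb, Bub1b and Mki67, among others. AGGTCA was held by 4 (9.76%, against 16.2% of all): Mcm2, Pcna, Ccnb1 and Kif2c. The KLF/SP word GGGCGGG was held by 20 (48.8%, against 38.8%) and the PU.1 word GAGGAAGT by 1 (2.44%, against 3.57%). Both strands were searched, matches may overlap, and a promoter counts once for each motif. DR1 was in none of the 41 windows, also when 1 mismatch was allowed, and in 0.0574% and 0.578% of all promoters, so rare overall that 0 of 41 says little. An E2F or CHR match was in 6 of 12 promoters with a consensus region (25.4% to 74.6%), 14 of 21 with a peak in library 1 only (45.4% to 82.8%) and 7 of 8 with no peak of library 1 (52.9% to 97.8%), against 20.6% of all promoters. These intervals overlap.

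**Figure D1:**
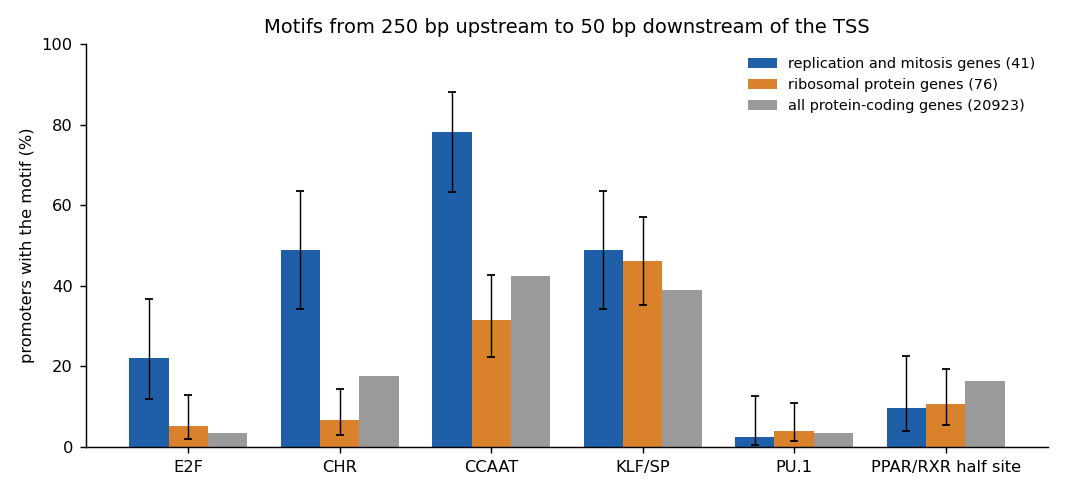
Share of promoters (%, y axis) that hold each motif within 250 bp upstream and 50 bp downstream of the start site, for replication and mitosis genes, ribosomal protein genes and all protein-coding genes. Whiskers are 95% Wilson intervals, the motif on the right is AGGTCA, and CHR was held by 48.8% of the replication and mitosis promoters, 6.58% of the ribosomal protein promoters and 17.7% of all.

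Promoters were taken from 1 kb upstream to 100 bp downstream of any start site. The 33 of 41 overlapped by a peak of library 1 made 80.5% (66.0% to 89.8%), against 41.3% of all genes. For library 2 they were 12 of 41 (29.3%, 17.6% to 44.5%), against 20.9%. A consensus region overlapped 12 of 41 (29.3%, 17.6% to 44.5%), against 20.4% of all genes, and the other 21 with a library 1 peak (51.2%, 36.5% to 65.7%) had no consensus region there, against 20.9% of all genes. Of the genes with a library 1 peak at the promoter, 12 of 33 thus had a consensus region (36.4%, 22.2% to 53.4%), against 49.4% of all such genes. With library 1 shortened to its 28535 best peaks, the length of library 2, its peaks overlapped 21 of the 41 promoters, against 28.3% of all. With a reciprocal overlap of 50% instead of 1 bp, 5 promoters held a consensus region, against 11.6% of all.

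Counted by the nearest start site, 35 of 41 were nearest to a library 1 peak (85.4%, 71.6% to 93.1%, against 60.6%), 16 to a library 2 peak (39.0%, 25.7% to 54.3%, against 34.9%), and 22 to a library 1 peak but to no consensus region (53.7%, 38.7% to 67.9%, against 29.0%).

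CpG-rich promoters, here those with an observed to expected CpG ratio of at least 0.6, were 90.2% of the 41 and 52.8% of all. Within them, a library 1 peak overlapped 30 of 37 promoters of replication and mitosis genes (81.1%, 65.8% to 90.5%), against 63.6% of all. A consensus region overlapped 11 of 37 (29.7%, 17.5% to 45.8%), against 31.2% of all. Among CpG-rich promoters the interval of the library 1 share lay above the value of all genes, and that of the consensus share included it. These intervals cover counting error over genes only. The part of CpG content in these counts was not tested. Within the same promoters, 19 of 37 held a CHR match (51.4%, against 13.2% of all) and 8 an E2F match (21.6%, against 5.45%). KLF/SP went the other way here, with 19 of 37 (51.4%), against 59.4% of all.

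**Figure D2:**
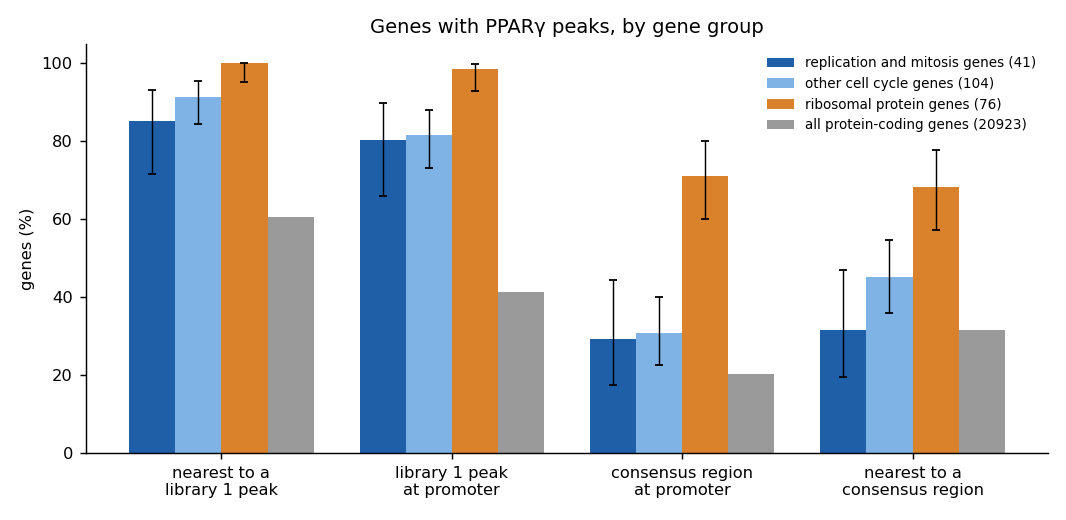
Share of genes (%, y axis) with each kind of PPARγ peak, for the 41 replication and mitosis genes, 104 other cell cycle genes, 76 ribosomal protein genes and all 20923 protein-coding genes, with 95% Wilson intervals as whiskers. The 41 genes stand at 80.5% for a library 1 peak at the promoter and at 31.7% for the nearest consensus region, beside 41.3% and 31.6% of all genes.

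A further 104 genes of the pathway were taken from a list, also chosen with earlier results of these data known. A library 1 peak overlapped 85 of their promoters (81.7%, against 41.3% of all) and a consensus region 32 (30.8%, against 20.4%). Thus 32 of 85 promoters with a library 1 peak had a consensus region (37.6%, 28.1% to 48.3%), against 49.4% of all such promoters. The 76 cytosolic ribosomal protein genes, whose promoters are active in most cells, are set beside them: a library 1 peak overlapped 75 promoters and a consensus region 54, which made 72.0% (61.0% to 80.9%). Counted by the nearest start site, 47 of the 104 had a consensus region (45.2%, 36.0% to 54.8%), as did 52 of the 76 (68.4%). By this measure all genes stood at 31.6% and the 41 genes at 31.7%.

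Among the genes of the replicative helicase, only Mcm4 was nearest to a consensus region. It lay 0.15 kb upstream at chr16:15637363-15637746, in the promoter shared with Prkdc, the catalytic subunit of DNA-dependent protein kinase. Its fold enrichment was 9.18 in library 1 and 3.96 in library 2, with a −log10 q of 19.9 and 3.04. The highest promoter peak of all 41 genes was at Mcm7, with a fold of 13.03 in library 1 and 5.25 in library 2 (−log10 q 34.9 and 6.37), in the region chr5:138171752-138172437. This region also covers the start of Ap4m1, a subunit of an adaptor complex for vesicle transport, which took the region by the nearest start site. Mcm7 had a further peak at its promoter in library 1 only, with a fold of 6.52. Mcm3 and Mcm5 had promoter peaks of 6.22 in library 1 only, and Mcm6 had 1 of 3.85, while no peak of either library overlapped the Mcm2 promoter. Mcm3 had a library 2 peak with no library 1 peak under it, 0.60 kb downstream with a fold of 5.07. The subunits of a single ring thus ranged between a shared region and no peak.

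Of the genes for nucleotide supply, the sliding clamp and chromatin, Pcna and Rrm1 were nearest to consensus regions. The Pcna promoter region, chr2:132253010-132254412, held 2 peaks of library 1 and 1 of library 2, with highest folds of 11.0 and 5.91 (−log10 q 26.5 and 7.77). A smaller region in its introns, chr2:132251714-132252896, 0.88 kb downstream, reached 6.52 and 4.24 (10.8 and 3.04). At Rrm1, the large subunit of ribonucleotide reductase, the region chr7:102441580-102442023 spanned the start site, with its centre in an exon and folds of 7.70 and 7.59 (−log10 q 14.7 and 12.4). Its partner subunit Rrm2 had 5 peaks of library 1 nearest to it, none at the promoter and none shared. Top2a and Asf1b, a histone chaperone, had promoter peaks of 8.59 and 7.70 in library 1 only. Hells, a chromatin remodeller, had no peak of either library. Ung, which removes uracil from DNA, had no library 1 peak and 1 library 2 peak, 0.48 kb downstream, with a fold of 4.79.

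None of the 3 repair and checkpoint genes was nearest to a consensus region, against 31.6% of all genes that were, a share at which 3 genes say little. The Brca1 promoter was nonetheless overlapped by the region chr11:101551333-101553929, with folds of 11.8 and 5.91 (−log10 q 30.1 and 7.77). It is shared with Nbr1, an autophagy receptor on the opposite strand, whose start was nearer to its centre. Rad54l, a motor of homologous recombination, had a promoter peak of 5.33, and Chek1, the checkpoint kinase of stalled forks, 1 of 3.85, both in library 1 only.

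The cyclins and Cdk1 had no consensus region and no library 2 peak nearest to them, in 6 of 6 genes, against 31.6% and 34.9% of all genes that do, shares at which 0 of 6 says little. All 6 were nearest to library 1 peaks, against 60.6% of all genes. A library 1 peak lay at the promoter in 5, against 41.3% of all promoters and 63.6% of CpG-rich ones. Counts over 6 genes say little. These promoter peaks were among the weakest: Ccnb1 had a fold of 3.26, Ccne1 of 3.55, Cdk1 of 3.60, Ccne2 of 4.44 and Ccnb2 of 5.04. With Chek1 and Mcm6 at 3.85, Ccnb1, Ccne1 and Cdk1 were the 5 lowest of the promoter peaks found in library 1 only, taking the strongest peak of each gene. Ccna2, the cyclin of S phase and early mitosis, had a library 1 peak nearest to it but none at its promoter. The nearest library 2 peak lay 42.4 kb from the start of Ccnb1 and 1070 kb from that of Cdk1.

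Of the genes of mitotic kinases and the spindle checkpoint, 4 of 7 had a shared promoter region. All promoters stood at 20.4% and CpG-rich ones at 31.2%, and a count over 7 genes says little. Aurka, the kinase of the spindle poles, had the region chr2:172370470-172371069, which also covers the start of Cstf1, a factor of mRNA 3′ end cleavage. Its folds were 9.77 in library 1 and 7.59 in library 2, and its −log10 q 22.0 and 12.4. Bub1b, a component of the mitotic checkpoint complex, reached 11.0 and 6.75 at its promoter, chr2:118597499-118598242 (26.5 and 9.59). It had 2 regions in its introns: chr2:118599740-118602540, 2.93 kb downstream, with folds of 11.6 and 10.4 (28.9 and 20.9), and chr2:118598628-118598906, with 4.44 and 4.24 (4.89 and 3.04). Bub1, the checkpoint kinase at kinetochores, had 1 region, chr2:127831888-127832627, with 5.63 and 4.79 (8.12 and 4.51).

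Aurkb, the kinase of the chromosomal passenger complex, was nearest to 5 regions. The promoter region, chr11:69044904-69045658, had a low fold of 3.03 in library 1 and 6.19 in library 2 (−log10 q 4.59 and 7.77), while 10 of the 12 promoters were higher in library 1. A region 1.46 kb upstream, chr11:69044100-69044254, had 3.55 and 4.24 (2.80 and 3.04), and 1 lay past the end of the gene, chr11:69051906-69052526, with 8.0 and 5.35 (15.7 and 6.12). The 2 strongest lay upstream. One of them, chr11:69040235-69042529, 4.26 kb from the start, had folds of 21.9 and 10.9 (75.6 and 23.2) and covered 4 tRNA genes. The other, chr11:69036808-69038414, 8.03 kb from the start, had 15.4 and 9.26 (45.0 and 17.6) and covered 3 tRNA genes. Aurkb also had a library 2 peak with no library 1 peak under it, with a fold of 3.44. Of the remaining kinases, Nek2 had a promoter peak of 4.44 in library 1 only, and Plk1 and Pbk had no peak of either library.

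Kinesins, the motors that slide and shorten spindle microtubules, were nearest to regions in 3 of 4 genes, against 31.6% of all genes. A count over 4 genes says little, and only Kif11 had a region at its promoter. The Kif11 promoter region, chr19:37375048-37376466, had folds of 5.39 in library 1 and 7.59 in library 2 (−log10 q 11.9 and 12.4). Its other 3 regions were chr19:37370251-37370693 (7.58 and 4.24, with −log10 q 16.3 and 3.04), chr19:37370893-37371295 (4.89 and 5.63, with 6.85 and 6.96) and, in an intron, chr19:37376802-37377379 (4.39 and 5.91, with 4.85 and 7.77). Kif11 also had 3 library 2 peaks with no library 1 peak under them, with folds of 5.07, 3.82 and 4.69. The Kif15 promoter peaks, with folds of up to 8.0, were in library 1 only and nearest to 1110059G10Rik, which starts within 1 kb of Kif15. The consensus region nearest to Kif15, chr9:122951516-122951810, lay 0.58 kb downstream of its start with 3.63 and 3.96 (4.19 and 3.04). Its centre lies in the promoter of 1110059G10Rik. Kif20b had promoter peaks of up to 4.44 in library 1 only.

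Kif2c, which depolymerises microtubules at kinetochores, was nearest to the strongest region of all 31. It lay 7.61 kb upstream at chr4:117189211-117191257, with a fold of 42.1 in library 1 and 21.8 in library 2 (−log10 q 185.6 and 67.2). By the lower of its 2 percentiles of fold enrichment it ranked 11 among the 20233 consensus regions. It covers an snRNA gene, Gm25099. The other regions nearest to Kif2c, chr4:117202117-117202970 with 16.3 and 5.35 (49.0 and 6.12) and chr4:117210304-117211368 with 8.64 and 3.64 (21.4 and 2.44), also cover an snRNA gene each. At the Kif2c promoter the peaks, with folds of up to 8.59, were in library 1 only.

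Of the genes of the kinetochore, centrosome and spindle, Stil and Tacc3 had shared promoters. Stil, which is needed for centriole duplication, had the region chr4:114999505-115000279 with 8.29 and 4.24 (−log10 q 16.7 and 3.04), and a further 1 at chr4:114994226-114994617, 5.70 kb upstream, with 4.69 and 4.79 (5.88 and 4.51). Tacc3, which strengthens spindle microtubules, shares its region, chr5:33657887-33658562, with Tmem129, and had 8.0 and 4.81 (15.7 and 5.30). Spc25 and Cenpe of the kinetochore, Prc1 of the central spindle and Hmmr, whose start lies within 1 kb of Nudcd2, had promoter peaks in library 1 only, the strongest of each gene with folds from 5.04 to 5.63. Prc1 also had a library 2 peak with no library 1 peak under it, 5.02 kb downstream. Cenpf had no peak of either library, and the nearest library 2 peak lay 1222 kb away.

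Mki67, which coats mitotic chromosomes and whose protein Ki67 marks cycling cells, had the most regions, 6, and none at its promoter. The promoter peak, with a fold of 5.33, was in library 1 only. Of its regions, 5 lay in its introns. They were chr7:135715525-135715903, 0.67 kb downstream of the start, with folds of 7.70 and 6.47 (−log10 q 14.7 and 8.67), chr7:135714866-135715411 with 5.61 and 5.63 (8.46 and 6.96), and chr7:135714034-135714370 with 4.07 and 4.79 (4.28 and 4.51). Farther in were chr7:135710146-135710502 with 5.04 and 4.52 (6.45 and 3.76) and chr7:135705788-135706213 with 5.92 and 5.63 (8.99 and 6.96). The sixth, chr7:135736008-135736547, lay 19.9 kb upstream with 5.63 and 5.07 (8.12 and 5.30). Mki67 was nearest to 17 library 1 peaks, 11 of them in library 1 only, the highest count of the 41 genes, and to 2 library 2 peaks with no library 1 peak under them, with folds of 3.96 and 3.68.

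**Figure D3:**
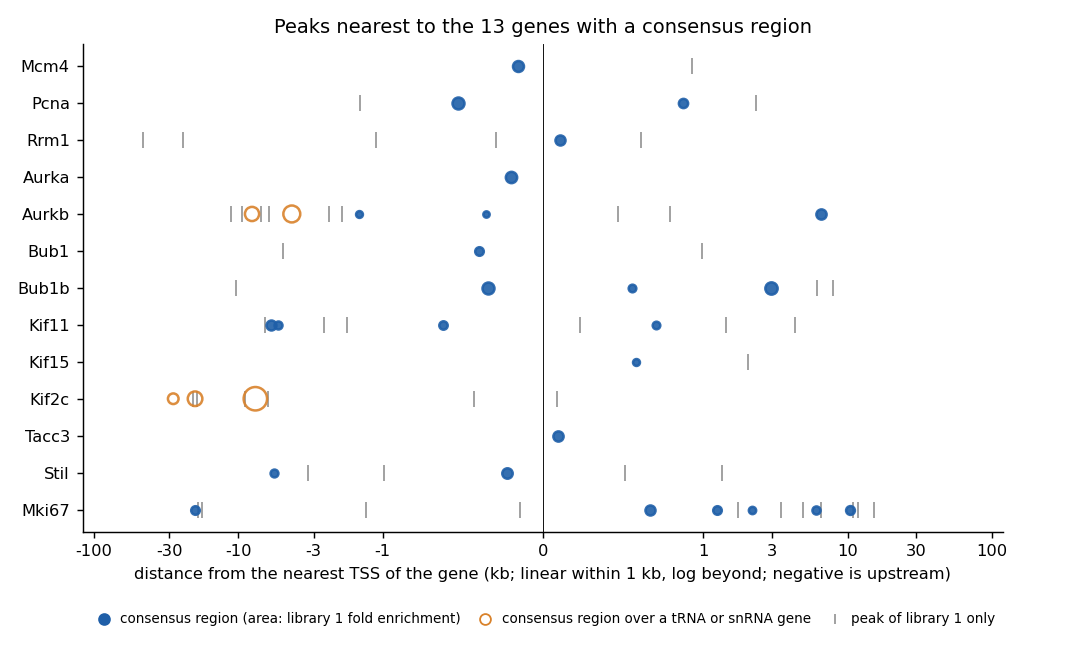
Distance in kb from the nearest start site (x axis, linear within 1 kb and logarithmic beyond) of the peaks nearest to each of the 13 genes with a consensus region (rows). Filled circles are consensus regions, their area showing the library 1 fold enrichment, open circles are those over a tRNA or snRNA gene, and ticks are peaks of library 1 only. The 5 open circles, at Aurkb and Kif2c, include the 4 highest folds.

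Regions over small RNA genes therefore held the highest values assigned to replication and mitosis genes. These made 5 of the 31 regions, at Aurkb and Kif2c. Without regions that overlap a tRNA or snRNA gene, an alternative chosen after the data were seen, 12 of 41 genes were nearest to a consensus region, against 31.5% of all genes. Kif2c was the gene lost. The highest folds among the 26 remaining regions were 11.6 in library 1 and 10.4 in library 2, both at Bub1b, and the medians were 5.78 and 5.21, against 6.81 and 5.35 for all such regions. Which of the genes in a region a peak belongs to was not tested.

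Peaks at the promoter were next compared by sharing, using all 132 library 1 peaks nearest to the 41 genes. Of these, 34 lay in a consensus region and 98 in library 1 only. Peaks centred in a promoter were 8 of the 34 (23.5%, 12.4% to 39.996%) and 27 of the 98 (27.6%, 19.7% to 37.1%). Over all genes they were 15.9% of the peaks in a consensus region and 10.2% of those in library 1 only. Read the other way, 8 of 35 promoter peaks lay in a consensus region (22.9%, 12.1% to 39.0%) and 26 of 97 peaks elsewhere (26.8%, 18.998% to 36.4%), against 36.5% and 25.6% over all genes. By this count promoter peaks of replication and mitosis genes were shared less often than those of all genes, but the interval includes 36.5%. Their other peaks were shared in about the same proportion. Counting by centre and nearest start leaves out the shared promoter peaks of Brca1 and Mcm7, which were nearest to Nbr1 and Ap4m1. It places those of Rrm1 and Tacc3, which span the start site, elsewhere. The same rule was applied to all genes.

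Shared peaks were stronger, as they were for all genes. At promoters, the median library 1 fold was 8.74 for the 8 peaks in a consensus region (quartiles 5.57 and 10.1) and 5.04 for the 27 in library 1 only (4.0 and 5.90), against 7.41 and 4.67 over all genes. Elsewhere it was 6.66 for 26 shared peaks and 4.32 for 71 unshared ones, against 6.22 and 4.15. The groups overlapped at promoters: the lowest shared peak, at Aurkb, had 3.03, while the highest in library 1 only had 8.59. By overlap instead of centre, 43 library 1 peaks touched a promoter of the 41 genes, and 13 of them lay in a consensus region (30.2%, 18.6% to 45.1%), against 38.6% over all genes. Their median fold was 8.29, against 5.18 for the other 30.

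**Figure D4:**
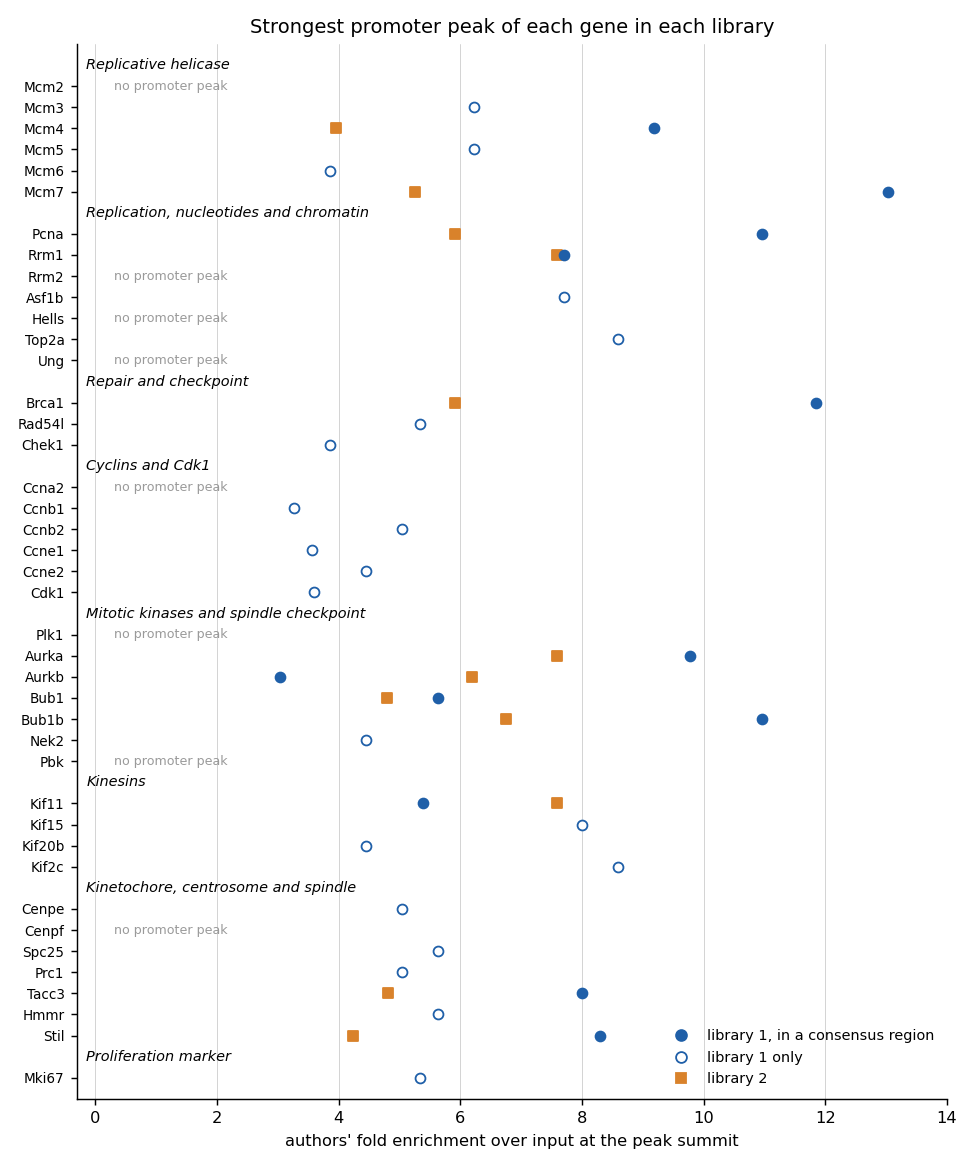
The authors' fold enrichment (x axis) of the strongest peak overlapping each promoter, by gene (rows, grouped by role), in library 1 (circles, filled where the peak lies in a consensus region) and library 2 (squares). The 12 genes with squares are those with a consensus region, and at Aurkb and Kif11 the value of library 2 is the higher.

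**Figure D5:**
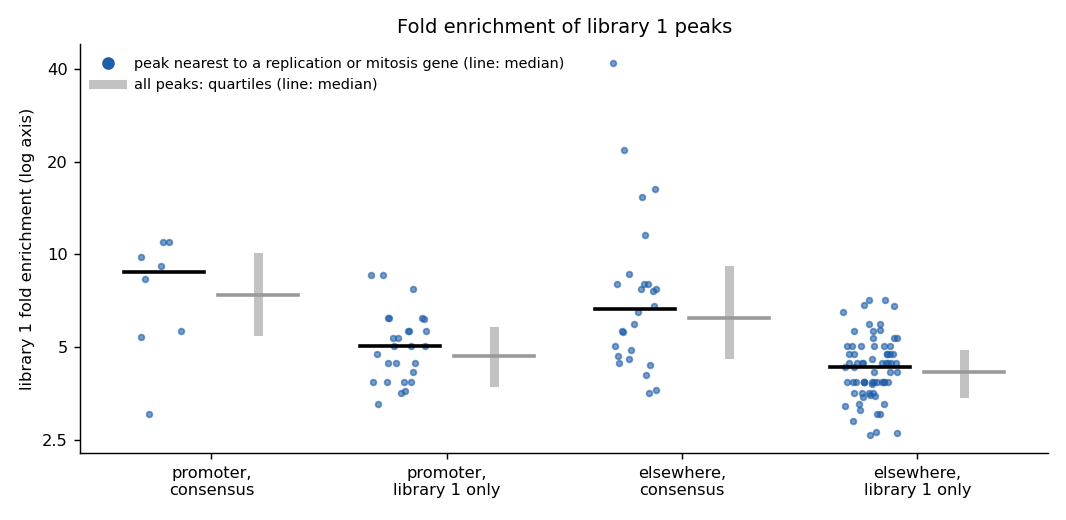
Library 1 fold enrichment (y axis, log scale) of peaks nearest to replication and mitosis genes (points, with medians as black lines) beside the median and quartiles of all peaks (grey), at promoters and elsewhere, in a consensus region or in library 1 only. The medians at promoters are 8.74 in a consensus region and 5.04 in library 1 only.

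For the 21 genes whose promoter peaks were in library 1 only, the distance to library 2 peaks was measured. The nearest library 2 peak lay more than 20 kb from the start in 15 of them and within 1 kb in 3, with a median distance of 48.2 kb. In the 12 genes with a consensus region at the promoter the largest distance was 0.22 kb. A short distance there follows from the grouping, since a consensus region holds a library 2 peak, so the 2 groups are not compared. The 21 genes were likewise grouped by having no consensus region at the promoter, which makes a near library 2 peak less likely. These distances were not measured for all genes, so the counts over the 21 cannot be called high or low. The 5 highest promoter peaks of library 1 only were those of Kif2c and Top2a at 8.59, Kif15 at 8.0, Asf1b at 7.70 and the further peak of Mcm7 at 6.52. Peaks at Top2a and Kif2c ranked 6560 in library 1, whose 83787 peaks are 2.94 times those of library 2.

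Around the summits of the 31 regions, within 100 bp on each side, DR1 with up to 1 mismatch was not found. It was in 0.335% of all consensus regions centred in a promoter and 0.873% of those elsewhere. It is so rare by this exact search that its absence from 31 regions says little. AGGTCA was found in 1, the region past the end of Aurkb, against 10.6% of all regions centred in a promoter and 15.7% of those elsewhere. In the same windows around promoter summits of library 1, a CCAAT match lay in 24 of 33 (72.7%, against 34.3% of all genes with such a peak), and a CHR match in 10 (30.3%, against 11.1%).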

How the data were processed

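Values were read from the deposited peak lists of 2 ChIP libraries. The submitters' processing notes name MACS3, Bowtie2, SAMtools, cutadapt, CASAVA and bcl2fastq 2.20.0.422, with mm10. Per the study's methods, peaks were called at q 0.05 with input as control, and the deposited lists are 1 for each ChIP library. The authors' lists give fold enrichment (a ratio), −log10 p and q, and a score made from −log10 q. Peaks of both libraries overlapping by at least 1 bp were merged, and regions with peaks of both were kept as consensus. Each was assigned to the protein-coding gene whose curated RefSeq start is nearest its centre. The members and lists were chosen with earlier results of these data known. Every gene nearest to a consensus region is given in full, and others by name as the 5 highest or lowest, for lack of a library 1 peak, for a library 2 peak alone, or for a shared promoter. Exact motif words were searched on both strands. Merging, assignment and overlap passed 4 of 4 checks on planted peaks. Python 3.11.15, pandas 2.3.3 and statsmodels 0.14.6 were used. No test was run, since 1 group of 2 libraries allows none.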

Additional observations from a re-analysis of the deposited data

How the results depend on the processing

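With library 2 alone as the source of regions, 16 of the 41 genes were nearest to a region (against 34.9% of all) and 12 promoters were overlapped (against 20.9%). With library 1 alone these were 35 (against 60.6%) and 33 (against 41.3%). At a fold enrichment of at least 5, 8 genes were nearest to a consensus region (against 22.7% of all) and 7 promoters held 1 (against 13.7%). With library 1 shortened to its best peaks by q, as many as library 2 has, its peaks overlapped 21 promoters (against 28.3% of all) and were nearest to 23 genes (against 41.4%). With a reciprocal overlap of 50%, 5 promoters held a consensus region (against 11.6%) and 11.6% of promoter peaks were shared (against 19.6% over all genes). With summits at most 100 bp apart these were 6 (against 12.3%) and 13.95% (against 20.8%). Around the best summit, an E2F, CHR or CCAAT match lay in 25 of the 33 promoters with a library 1 peak (75.8%), against 43.0% of all such promoters. The regions without tRNA or snRNA genes were an alternative chosen after seeing the data, with 12 genes. The other 46 of 57 recomputed values, among them those under a q of 0.001, GENCODE start sites and other promoter windows, stayed within 1.5 times the count reported or within the spread of the peaks. No paired analysis was possible because no comparison between groups was made and the input libraries were not analysed here. Library 1 was sequenced more deeply, and a weak peak missed in library 2 cannot be told apart from an absent one.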

Other observations

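Of the 104 other genes of the pathway, the regulators had a consensus region nearest to them in 11 of 19 (57.9%, 36.3% to 76.9%), against 31.6% of all genes. By the same measure the other replication genes stood at 41.9% and the other mitosis genes at 42.9%. At the promoter the regulators had a consensus region in 6 of 19 (31.6%), against 20.4% of all promoters and 31.2% of CpG-rich ones. E2f2, an activating E2F factor, had 3, the strongest 1.90 kb upstream with a fold of 11.6 in library 1 and 9.54 in library 2, and E2f8, a repressing one, had 1 at its promoter with 8.0 and 5.35. Of the MuvB subunits, Lin37, Lin52 and Lin54 had a consensus region at the promoter, with folds of 6.22, 9.77 and 7.11 in library 1 and 5.35, 5.91 and 4.52 in library 2, and Lin9 had none nearest to it. Foxm1 and E2f7 had no library 1 peak nearest to them, and Rb1, the founding pocket protein, had a region 1.10 kb downstream with 6.52 and 7.03. Of the other replication genes 12 of 43, and of the other mitosis genes 14 of 42, had a consensus region at the promoter (27.9% and 33.3%, against 20.4% of all promoters and 31.2% of CpG-rich ones), among them Knl1, a kinetochore scaffold, with 18.1 and 10.1, and Cks2, a subunit of cyclin-dependent kinases, with 15.1 and 7.31.

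Over the genome, 170 of 403 annotated tRNA genes (42.2%) lay in a consensus region, as did 40 of 996 snRNA genes (4.02%). The 142 regions over a tRNA or snRNA gene had median folds of 13.03 in library 1 and 8.15 in library 2, against 6.81 and 5.35 in the other 20091 regions.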
